A study of Mus musculus with 2 samples.

Results

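Genes that make NAD or clear nicotinamide, 9 in all, were followed through 2 single-cell libraries of tumour leukocytes: Nampt, Nmnat1, Nmnat3, Nadsyn1, Naprt, Nadk, Nnmt, Qprt and Nt5e. They were chosen by name, with earlier results of these data known, and all 9 were among the 27998 gene rows of both count tables. The libraries held CD45+ cells, selected with magnetic beads, from TSA mammary tumours grown in Balb/c mice, and each library was made from a pool of 3 mice. In the NAM group, the mice drank water with 0.5% nicotinamide for 10 days, and the other group was left untreated. The untreated library had 2922 cells and 29161823 UMIs, and the NAM library had 3276 cells and 32090120 UMIs. A UMI (unique molecular identifier) stands for 1 captured mRNA molecule. With 1 library per group there was no replicate check, and the treatment, the mice and the library preparation cannot be told apart. All intervals below are 95% intervals that cover counting error only, and no p-value was computed.

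NAD is the electron carrier of central metabolism and the substrate of sirtuins, PARPs and CD38, which release nicotinamide when they consume it. Cells recycle this nicotinamide by the salvage pathway, in which NAMPT makes nicotinamide mononucleotide (NMN) and the NMNAT enzymes join NMN to an adenylate to give NAD. NAD can also be made from nicotinic acid, through NAPRT and the synthetase NADSYN1, and from tryptophan, through QPRT. NAD kinase adds a phosphate to give NADP, NNMT methylates nicotinamide so that it can be excreted, and the surface enzyme CD73, encoded by Nt5e, cleaves extracellular nucleotides, AMP and NMN among them.

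Cells were sorted by the UMIs of marker genes, and 15 of the gates are described. There were 4197 macrophages with high C1q in both libraries together, of which 5 subsets are described, besides 260 Ctsk Acp5 osteoclast-like cells, 162 C1q-low Tgfbi Htra3 cells, 364 Ly6c2 monocytes, 177 dendritic cells of 3 kinds, 440 T cells of 3 kinds and 94 NK cells. The remaining 504 cells met no gate. Gzma, Ncr1 and Xcl1 were among the 10 leading genes of the NK gate, as were Foxp3, Ikzf2, Ctla4 and Il2ra in the Foxp3 T-cell gate. The osteoclast-like gate was led by Ctsk, Acp5, Atp6v0d2, Mmp9 and Ocstamp. Of these genes, Gzma, Ncr1, Foxp3, Ctsk, Acp5 and Mmp9 were used to set the gates, so that their lead follows from the gating. The C1q-low Tgfbi Htra3 cells were led by Lpl, Spp1 and Gja1 and are called by their gate only. A UMI of Ptprc, which encodes CD45, was found in 78.0% of the untreated and 77.3% of the NAM cells, and the libraries had 11 barcodes in common. Haemoglobin genes took 19.6 CPM (UMIs scaled to 1e+06 per gate and library) of all untreated cells and 684 CPM of all NAM cells.

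In the GRCm38 genome (GENCODE M21), Nampt lies on chromosome 12 at chr12:32819545-32853349 and Nadk on chromosome 4 at chr4:155562378-155591001, both on the plus strand. Nmnat1 is on the minus strand at chr4:149467572-149485202, Nmnat3 on the plus strand at chr9:98287435-98420438 and Nt5e on the plus strand at chr9:88327197-88372092. Nadsyn1 at chr7:143795584-143822849, Qprt at chr7:127107114-127122226, Naprt at chr15:75890956-75894481 and Nnmt at chr9:48591877-48605153 are on the minus strand. All are protein-coding. Nampt overlaps the noncoding gene Gdap10 on the same strand, which had 353 UMIs untreated and 315 with NAM, and Naprt overlaps Eef1d, an elongation factor gene with 7688 and 8672 UMIs. Nmnat3 overlaps the processed pseudogene Gm28530 on the same strand and Nmnat1 the protein-coding gene Tmem274 on the opposite strand, for which no UMI counts were used here. How reads in such overlaps were assigned is not given in the sources used here.

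Promoter windows of 300 bases, from 250 bases before to 50 after the transcription start, were available from RefSeq (GRCm38.p6) for 7 of the 9 genes. Those of Nampt, the entry point of salvage, and of Nmnat1, Nmnat3 and Nadsyn1, which had higher levels together in NAM macrophages, are printed 5′ to 3′ on the strand of the gene, with capitals for the GC box letters GGGCGG on either strand.
Nampt, chr12:32820085-32820384, plus strand: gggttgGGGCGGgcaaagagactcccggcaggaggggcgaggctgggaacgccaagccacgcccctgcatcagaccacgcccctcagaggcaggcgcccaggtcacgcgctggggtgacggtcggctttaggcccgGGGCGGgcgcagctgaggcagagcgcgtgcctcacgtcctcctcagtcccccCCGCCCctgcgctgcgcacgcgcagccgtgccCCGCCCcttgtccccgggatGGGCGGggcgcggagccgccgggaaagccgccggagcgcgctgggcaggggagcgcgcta
Nmnat1, chr4:149485161-149485460, minus strand: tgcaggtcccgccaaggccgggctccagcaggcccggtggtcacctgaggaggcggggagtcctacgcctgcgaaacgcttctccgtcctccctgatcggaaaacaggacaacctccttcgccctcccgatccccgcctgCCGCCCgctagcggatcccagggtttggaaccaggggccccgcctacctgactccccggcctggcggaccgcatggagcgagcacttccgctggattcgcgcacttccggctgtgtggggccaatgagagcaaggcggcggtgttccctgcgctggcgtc
Nmnat3, chr9:98296320-98296619, plus strand: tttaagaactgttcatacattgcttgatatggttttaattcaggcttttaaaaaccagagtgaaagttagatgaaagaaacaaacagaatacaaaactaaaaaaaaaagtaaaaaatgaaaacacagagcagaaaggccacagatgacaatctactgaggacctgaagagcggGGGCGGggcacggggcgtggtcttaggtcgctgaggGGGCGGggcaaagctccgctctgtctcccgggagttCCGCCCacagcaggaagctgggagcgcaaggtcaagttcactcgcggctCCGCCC
Nadsyn1, chr7:143822803-143823102, minus strand: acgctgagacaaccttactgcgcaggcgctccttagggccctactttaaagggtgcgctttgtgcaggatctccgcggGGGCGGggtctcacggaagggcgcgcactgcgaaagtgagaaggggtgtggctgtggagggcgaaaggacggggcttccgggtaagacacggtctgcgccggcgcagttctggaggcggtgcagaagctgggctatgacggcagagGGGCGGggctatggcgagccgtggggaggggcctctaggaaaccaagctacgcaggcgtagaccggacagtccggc
The window of Nampt held 5 GC boxes, that of Nmnat3 4, that of Nadsyn1 2 and that of Nmnat1 1, while 35.7% of the 32851 promoters in the table had at least 1. Their GC content was 76.3% for Nampt, 69% for Nmnat1, 65.7% for Nadsyn1 and 49% for Nmnat3, against a median of 52.7% for all promoters. The E-box CACGTG was in none of these 4 windows and in 7.15% of all promoters, on either strand, and the AP-1 letters TGANTCA were likewise in none and in 7.81%. A match is only a description of the letters.

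The genes fell into an abundant pair and a sparse rest. The untreated library held 2687 UMIs of Nampt and the NAM library 3162, and Nadk had 2556 and 2676. Nt5e followed with 248 and 297 UMIs, Naprt with 182 and 199, Nmnat1 with 148 and 212, Nmnat3 with 144 and 182, Nadsyn1 with 68 and 96, and Qprt with 40 and 57. These are counts in the same cells from 3′ tags, for which no scaling by gene length applies. Nnmt, the nicotinamide methyltransferase, gave 1 UMI in all cells, from an untreated Vcam1 Dnase1l3 macrophage. A count of 0 over the NAM library allows up to 0.0935 CPM of Nnmt, so that a difference between the groups was not detectable at this depth.

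By the mean of the libraries, Nampt was highest in Ly6c2 monocytes and interferon-high macrophages and lowest in lymphocytes and osteoclast-like cells. Ly6c2 monocytes had 169 CPM (145 to 195) in the untreated library and 154 CPM (132 to 179) in the NAM library. Interferon-high macrophages, chosen by Ifit3, Rsad2 and Isg15, had 147 CPM (131 to 164) and 158 CPM (143 to 175). These gates did not differ beyond their intervals, and they stood above Vcam1 Dnase1l3 macrophages, the next in the order, with 103 CPM (92.9 to 113) and 114 CPM (103 to 125), in both libraries. This was the only step between neighbouring gates, of the 14 in the order for Nampt, whose interval left out no difference in both libraries. At the other end, Nampt was at 42.7 CPM (34.5 to 52.1) and 46.6 CPM (38.4 to 56.0) in osteoclast-like cells, at 45.1 CPM (33.1 to 60.0) and 33.7 CPM (24.5 to 45.0) in T cells, and at 29.5 CPM (14.7 to 52.8) and 23.1 CPM (6.29 to 59.1) in NK cells.

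**Figure D1:**
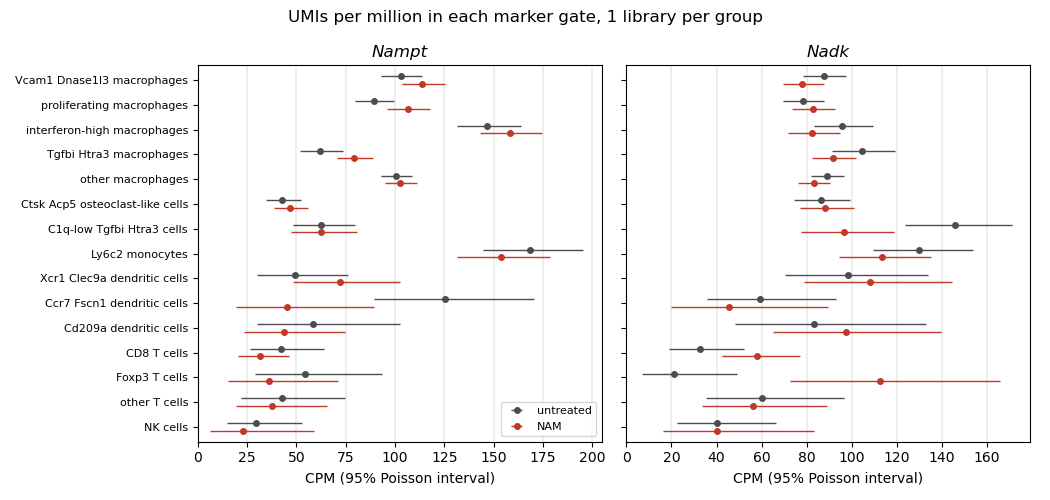
Levels of Nampt (left) and Nadk (right) in CPM (x axis) in the 15 marker gates (y axis), with grey points for the untreated and red points for the NAM library and bars for 95% Poisson intervals. Nampt is at 169 and 154 CPM in Ly6c2 monocytes and at 29.5 and 23.1 CPM in NK cells; Nadk in Foxp3 T cells is at 20.96 CPM untreated and 112 CPM in the NAM library.

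Within macrophages, the interferon-high subset exceeded all other macrophages in Nampt by 0.65 (0.47 to 0.82) on the log2 scale in the untreated library and by 0.61 (0.45 to 0.77) in the NAM library. The Tgfbi Htra3 subset had less Nampt than the other macrophages, by a log2 ratio of -0.75 (-1.01 to -0.49) and -0.54 (-0.72 to -0.36). For the other 3 subsets described the log2 ratio to the rest lay between -0.19 and 0.07. After each cell was thinned to 3000 UMIs, 34.6% of untreated and 38.1% of NAM interferon-high macrophages had a UMI of Nampt. The share was 16.5% and 21.9% among Tgfbi Htra3 macrophages, and 9.47% and 10.0% among T cells. Without thinning it was 76.6% and 72.6% of interferon-high macrophages, whose cells had median totals of 11163 and 10426 UMIs, against 4655 and 4409 in T cells.

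The genes most like Nampt in level over the 15 gates and 2 libraries (30 points that share libraries and depth, 9060 genes compared) were Il27, a cytokine subunit of myeloid cells, with a Pearson r of 0.90, C3, the central complement component, with 0.89, and Il1a, which encodes interleukin-1 alpha, with 0.88. These correlations are descriptions without a test.

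Between the libraries, Nampt differed little in macrophages. It went from 2074 UMIs (99.4 CPM) untreated to 2535 UMIs (109.5 CPM) with NAM, a log2 ratio of 0.14 (0.06 to 0.22) of NAM over untreated, which was short of the size set for a call. A gene is called past the fold below where its log2 ratio was 0.32 or more in size with an interval without 0, among genes with 20 or more UMIs in the gate. Nampt was past the fold in 2 of the 14 gates in which it reached 20 UMIs. In Tgfbi Htra3 macrophages it went from 129 to 293 UMIs and had a log2 ratio of 0.36 (0.06 to 0.67), where 11% of all genes tested were past the fold. With doubled marker thresholds this ratio was 0.11 (-0.37 to 0.61), and with each cell thinned to 3000 UMIs it was 0.52 (-0.08 to 1.14). In Ccr7 Fscn1 dendritic cells, the mature dendritic cells that migrate to lymph nodes, it went from 40 UMIs in 34 cells to 8 UMIs in 27 cells, a log2 ratio of -1.46 (-2.77 to -0.35), beside 14.1% of all genes. In these dendritic cells 5 cells gave 19 of the 40 untreated UMIs, and with doubled marker thresholds the log2 ratio was -0.72 (-2.48 to 0.72). The alternatives ran from -3.53 to -0.72. These cells had median totals of 9295.5 UMIs in the untreated and 5230 UMIs in the NAM library. Over all dendritic cells, the ratio for Nampt was -0.43 (-0.98 to 0.10). Neither Nampt nor Nadk, which alone of the 9 genes had 20 or more UMIs there, was past the fold, against 14.6% of all genes. Nampt was past it in 3 of 7 alternatives with an interval, at -0.81 (-1.43 to -0.22) without the 5% of cells with most UMIs. The other dendritic gates had 20 and 30 UMIs in Xcr1 Clec9a cells, with a log2 ratio of 0.55 (-0.32 to 1.44), and 12 and 13 UMIs in Cd209a cells, with -0.43 (-1.68 to 0.84).

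Nmnat1, Nmnat3 and Nadsyn1 had higher levels in macrophages of the NAM library. Nmnat1, which encodes the nuclear NMN adenylyltransferase, went from 88 UMIs in 86 cells (4.22 CPM, 3.38 to 5.20) to 158 UMIs in 152 cells (6.82 CPM, 5.80 to 7.98), a log2 ratio of 0.69 (0.31 to 1.09). Nmnat3, the mitochondrial member of the family, went from 65 UMIs (3.12 CPM, 2.40 to 3.97) to 109 UMIs (4.71 CPM, 3.87 to 5.68), with a log2 ratio of 0.60 (0.14 to 1.06). Nadsyn1, which amidates the nicotinic acid dinucleotide to NAD, went from 35 UMIs (1.68 CPM, 1.17 to 2.33) to 69 UMIs (2.98 CPM, 2.32 to 3.77), with a log2 ratio of 0.83 (0.22 to 1.46). The intervals of the levels did not overlap for Nmnat1 and overlapped narrowly for the other two. In cells thinned to 3000 UMIs, a UMI of Nmnat1 was found in 1.254% (0.813 to 1.85) of untreated and 2.13% (1.57 to 2.83) of NAM macrophages, and a UMI of Nmnat3 in 0.803% (0.460 to 1.30) and 1.68% (1.18 to 2.31). For Nadsyn1 these shares were 0.502% (0.241 to 0.921) and 0.862% (0.520 to 1.34). The intervals of the shares overlap for all 3 genes. For Nadsyn1 the log2 ratio in thinned cells was 0.85 (-0.31 to 2.11), no longer past the fold as defined above. No macrophage had more than 2 UMIs of any of these 3 genes, so that the counts came from many cells. Summed markers of other cell types also differed in these macrophages: 5 fibroblast genes went from 283 to 450 UMIs (13.6 to 19.4 CPM), 5 tumour or epithelial genes from 213 to 335 UMIs (10.2 to 14.5 CPM), 3 mast cell genes from 8.63 to 11.1 CPM and 4 neutrophil genes from 64.2 to 75.0 CPM. The 3 red cell genes went from 19.3 to 379 CPM, with 3811 of their 8781 NAM UMIs in 1 cell. By contrast, 4 endothelial genes were at 24.1 and 23.3 CPM and 4 B cell genes at 21.4 and 16.1 CPM. The part of such RNA in the 3 ratios was not tested.

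Over all cells, Nmnat1 went from 148 to 212 UMIs, a log2 ratio of 0.38 (0.07 to 0.69), and was the only gene past the fold of the 8 with 20 or more UMIs, beside 14% of all genes. Nmnat1, Nmnat3 and Nadsyn1 were the members past the fold among the 8 with 20 or more UMIs in macrophages, and all 3 were higher in the NAM library. Of all 11926 genes tested in macrophages, 14.5% were past the fold, and 3.71% were past it with the higher level in the NAM library. The median log2 ratio was 0.35 over the 8 genes and -0.04 over all genes tested. Without Qprt, which had 10 and 16 UMIs, it was 0.20 over the other 7. The other 5 stayed short of the fold, or had intervals that included 0: the log2 ratio was 0.14 for Nampt, -0.06 (-0.40 to 0.28) for Naprt, -0.12 (-0.22 to -0.03) for Nadk, 0.53 (-0.70 to 1.83) for Qprt and 0.20 (-0.13 to 0.53) for Nt5e. The Tgfbi Htra3 subset made up 188 of 1993 untreated and 342 of 2204 NAM macrophages. With the 5 subsets described weighted equally, the log2 ratios were 0.65 for Nmnat1, 0.74 for Nmnat3 and 1.16 for Nadsyn1.

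**Figure D2:**
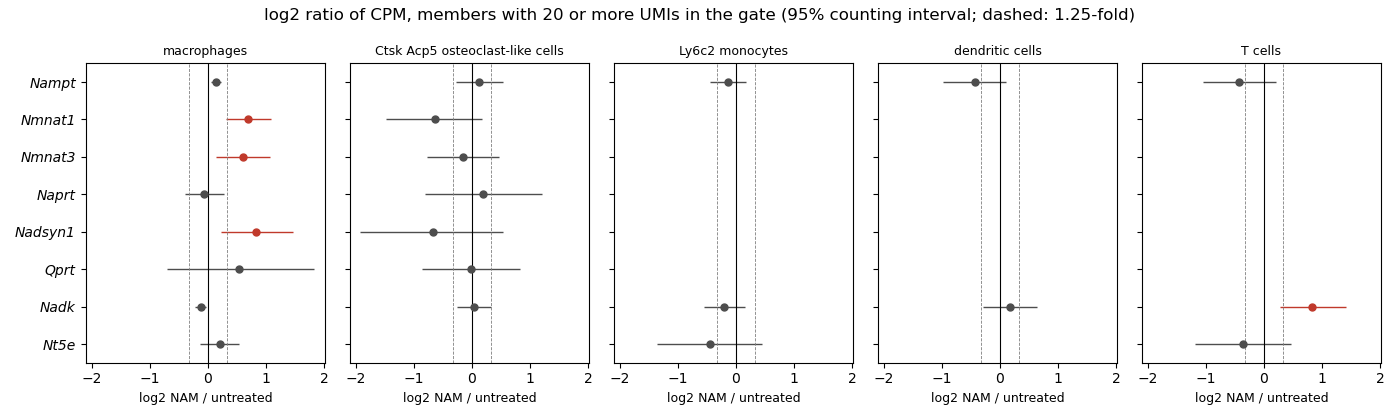
Log2 ratio of CPM, NAM over untreated (x axis), of each gene with 20 or more UMIs (y axis) in 5 broad gates, with 95% counting intervals as bars, dashed lines at a log2 ratio of 0.32 either way and red where a gene is past the fold. Nmnat1 (0.69), Nmnat3 (0.60) and Nadsyn1 (0.83) are past it in macrophages and Nadk (0.83) in T cells; no gene is past it in the other 3 gates.

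By subset, the ratio of Nmnat1 ran from -0.12 (-1.07 to 0.82) in Vcam1 Dnase1l3 macrophages to 1.20 (0.37 to 2.09) in the other macrophages, those that met no subset gate, where it went from 18 to 41 UMIs. That was the only subset in which Nmnat1 was past the fold, and the only call for the 9 genes there, beside 13.9% of all genes. In cells thinned to 3000 UMIs the interval of this ratio included 0, at 1.16 (-0.04 to 2.48). Nmnat3 had ratios from 0.28 to 1.15 over the 5 subsets, above 0 in all, and every interval included 0. Nadsyn1 had 0 UMIs in the 188 untreated and 10 UMIs in the 223 NAM interferon-high macrophages, too few to be counted among calls, and 9 and 18 UMIs in proliferating macrophages. In Vcam1 Dnase1l3 macrophages Nadsyn1 had fewer UMIs in the NAM library, 5 against 7.

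By the mean of the libraries, Nmnat3, Nmnat1, Nadsyn1 and Qprt were highest in the osteoclast-like cells, although no step to the next gate left out 0 in both libraries. This gate holds large cells, with median totals of 17329 and 16837 UMIs, and was set up after the levels of these genes in cells outside the first gates had been seen, so that its levels are a description. Nmnat3 was at 20.7 CPM (15.1 to 27.6) in the untreated library and at 18.6 CPM (13.5 to 24.8) in the NAM library, above macrophages by 2.73 (2.15 to 3.30) and 1.98 (1.44 to 2.49) on the log2 scale. For Nmnat1 the levels were 14.8 CPM (10.2 to 20.8) and 9.49 CPM (6.01 to 14.2), and the log2 ratio to macrophages was 1.81 (1.19 to 2.40) in the untreated library but 0.47 (-0.22 to 1.11) in the NAM library, in which C1q-low Tgfbi Htra3 cells had 12.1 CPM (6.02 to 21.6). Nadsyn1 was at 7.18 CPM (4.11 to 11.7) and 4.54 CPM (2.26 to 8.12), with log2 ratios to macrophages of 2.1 (1.15 to 2.99) and 0.61 (-0.46 to 1.53). In the NAM library its level was higher in proliferating macrophages, at 4.92 CPM. It was also higher in NK cells, at 5.77 CPM, and Ccr7 Fscn1 dendritic cells, at 5.68 CPM, from 1 UMI each.

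Qprt, the enzyme that takes quinolinate from tryptophan breakdown into NAD synthesis, had its highest level in these cells. The 121 untreated osteoclast-like cells held 25 of the 40 UMIs of Qprt in their library, and the 139 NAM cells held 27 of 57. The level was 11.2 CPM (7.26 to 16.6) and 11.1 CPM (7.34 to 16.2), against 0.479 CPM (0.230 to 0.881) and 0.691 CPM (0.395 to 1.12) in macrophages. That is a log2 ratio of 4.55 (3.44 to 5.77) in the untreated and 4.01 (3.07 to 5.00) in the NAM library. Qprt came from 16 cells of this gate in each library, and 5 of them gave 14 of the 25 and 15 of the 27 UMIs; without those 5 cells the level was 5.27 and 5.16 CPM. T cells had 4 and 5 UMIs of Qprt (3.84 and 3.74 CPM), also above macrophages, by 3.00 (0.87 to 4.79) and 2.44 (0.63 to 3.95) on the log2 scale. Ly6c2 monocytes had 0 in both libraries, which allows up to 2.83 and 2.70 CPM.

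**Figure D3:**
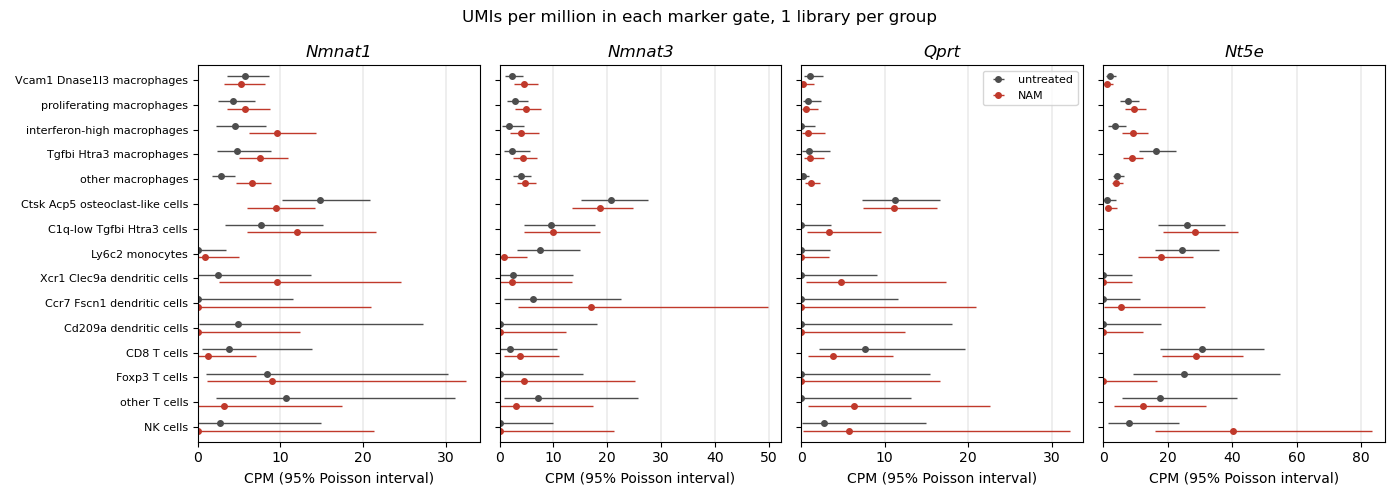
Levels of Nmnat1, Nmnat3, Qprt and Nt5e in CPM (x axes, each to its own scale) in the 15 marker gates (y axis), with grey points for the untreated and red points for the NAM library and bars for 95% Poisson intervals. Qprt and Nmnat3 stand highest in Ctsk Acp5 osteoclast-like cells, Qprt at 11.2 and 11.1 CPM, where Nt5e is at 1.35 and 1.65 CPM.

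The other genes did not share this pattern. In osteoclast-like cells Nampt was at 42.9% and 42.6% of its level in macrophages and Nt5e at 20.2% and 21.6%, while Nadk was at 99.2% and 111%. None of the 7 genes with 20 or more UMIs in this gate was past the fold between the libraries, against 9.96% of all genes. The log2 ratios of NAM over untreated were -0.64 (-1.48 to 0.17) for Nmnat1, -0.15 (-0.78 to 0.47) for Nmnat3, -0.66 (-1.92 to 0.53) for Nadsyn1 and -0.01 (-0.85 to 0.83) for Qprt. Over the alternatives they ran from -2.20 to -0.26 for Nmnat1 and from -0.51 to -0.01 for Nmnat3. For Nadsyn1 they ran from -1.20 to -0.57 and for Qprt from -1.52 to 0.10. For Nmnat1, Nmnat3 and Nadsyn1 the ratio in macrophages exceeded that in osteoclast-like cells, by 1.34 (0.48 to 2.19), 0.75 (0.01 to 1.49) and 1.49 (0.24 to 2.75).

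Naprt, which makes the mononucleotide of nicotinic acid, had similar values in macrophages and osteoclast-like cells. In macrophages it was at 6.85 CPM (5.78 to 8.07) and 6.57 CPM (5.56 to 7.70), and in osteoclast-like cells at 7.63 CPM (4.45 to 12.2) and 8.66 CPM (5.36 to 13.2). It was past the fold in none of the 6 fine gates with 20 or more UMIs, in which 9.96% to 13.9% of all genes were. The 5 macrophage subsets ran from 4.00 to 9.87 CPM. Whether the overlap with Eef1d affected these counts was not tested. The genes closest to Naprt in level over the gates were Nisch, Slc11a2 and Tulp4, with r from 0.67 to 0.70.

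Nadk, the cytosolic NAD kinase, reached 20 UMIs in all 15 gates. By the mean of the libraries its levels were highest in Ly6c2 monocytes, at 130.0 CPM (109 to 154) and 113 CPM (94.4 to 135), and in C1q-low Tgfbi Htra3 cells, at 146 CPM (124 to 171) and 96.4 CPM (77.3 to 119). In the NAM library Foxp3 T cells, at 112 CPM, Xcr1 Clec9a dendritic cells, at 108 CPM, and Cd209a dendritic cells, at 97.3 CPM, also exceeded the latter. In macrophages it was at 86.9 CPM (82.9 to 91.0) and 79.8 CPM (76.2 to 83.5). Within macrophages, the Tgfbi Htra3 subset had more than the rest, with log2 ratios of 0.30 (0.09 to 0.50) and 0.24 (0.07 to 0.41). No step between neighbouring gates in the order of Nadk left out 0 in both libraries.

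In T cells, Nadk was higher in the NAM library. It went from 39 UMIs in 30 of 190 cells (37.4 CPM, 26.6 to 51.1) to 89 UMIs in 69 of 250 cells (66.5 CPM, 53.4 to 81.9), a log2 ratio of 0.83 (0.27 to 1.41). This was the only gene past the fold of the 3 with 20 or more UMIs in T cells, where 11.7% of all genes were. The thinned share of T cells with a UMI of Nadk was 10.0% (6.13 to 15.2) and 16.0% (11.7 to 21.1), intervals that overlap, and the log2 ratio in thinned cells was 0.67 (-0.09 to 1.47). Nadk in T cells stood at 43.1% and 83.4% of its level in macrophages, whereas the macrophage genes Apoe, Pf4, Ms4a7 and Trem2 stood at 2.72% to 5.24% of theirs and the lysosomal protease gene Ctsd at 49.6% and 59.6%.

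By T-cell subset, the counts of Nadk were small. Foxp3 T cells, gated by the transcription factor of regulatory T cells, had 5 UMIs of Nadk in 5 of 38 untreated cells and 25 UMIs in 18 of 36 NAM cells, a log2 ratio of 2.42 (1.01 to 4.16), beside 11.2% of all genes past the fold. CD8 T cells had 17 UMIs in 98 cells and 46 UMIs in 152 cells, a log2 ratio of 0.83 with an interval that just included 0 and had its upper bound at 1.72. The other T cells had 17 and 18 UMIs, for which the log2 ratio was -0.10 (-1.14 to 0.95), and NK cells had 15 and 7 UMIs, at 40.3 and 40.4 CPM. Nadk was the only one of the 9 genes with 20 or more UMIs in NK cells and was not past the fold there, where 8.87% of all genes were. UMIs of the 3 red cell marker genes in T cells numbered 21 untreated and 6315 with NAM, and 6234 of the latter were in 1 cell. The 4 neutrophil genes had 18 and 132 UMIs there, 96 of the latter in 1 cell, and the 3 mast cell genes 95 and 27, of which 80 of the former were in 1 cell. The part of such cells in the ratio of Nadk was not tested. With haemoglobin genes, the mitochondrial and the ribosomal protein genes left out of the totals, the log2 ratio of Nadk was 0.84.

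The ratio of Nadk in T cells also differed from that in 3 other gates. The log2 ratio of that gate minus that of T cells was -0.95 (-1.50 to -0.40) for macrophages, -0.80 (-1.41 to -0.19) for osteoclast-like cells and -1.03 (-1.67 to -0.38) for Ly6c2 monocytes. In those monocytes the ratio of Nadk was -0.20 (-0.56 to 0.16), and none of the 3 genes with 20 or more UMIs there was past the fold, against 13.4% of all genes. Nmnat3 had 8 and 1 UMIs in them, too few to be counted among calls, with a log2 ratio of -3.07 (-8.54 to -0.17). Nadk was past the fold with the lower level in NAM in C1q-low Tgfbi Htra3 cells, at -0.60 (-0.99 to -0.21) beside 11.8% of all genes. This ratio changed sign when the gates were applied to thinned cells. In the cells that met no gate, Nadk was past the fold with the higher level in NAM, as in T cells, with 131 and 222 UMIs and 0.40 (0.08 to 0.72), beside 12.6% of all genes. The genes closest to Nadk in level were Gm12166, Ccdc86 and Erp29, with r from 0.76 to 0.79.

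Nt5e, which encodes CD73, was found in CD8 T cells, monocytes and some macrophages and was nearly absent from dendritic cells. CD8 T cells had 30.6 CPM (17.5 to 49.8) and 28.9 CPM (18.3 to 43.4), C1q-low Tgfbi Htra3 cells had 25.9 CPM (17.1 to 37.7) and 28.5 CPM (18.6 to 41.7), and Ly6c2 monocytes had 24.5 CPM (16.0 to 35.9) and 18.0 CPM (11.0 to 27.8). Macrophages as a whole had 6.66 CPM (5.60 to 7.87) and 7.65 CPM (6.56 to 8.86). Dendritic cells had 0 UMIs of Nt5e in 86 untreated cells, which allows up to 3.22 CPM, and 1 UMI in 91 NAM cells. T cells of all kinds exceeded macrophages by 1.96 (1.31 to 2.56) and 1.40 (0.76 to 1.99) on the log2 scale.

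Among macrophages, Nt5e was lower in 2 subsets than in the rest in both libraries. The Vcam1 Dnase1l3 subset had 8 UMIs in 376 cells and 5 UMIs in 365 cells, below the rest with log2 ratios of -1.89 (-3.13 to -0.87) and -2.76 (-4.40 to -1.51). Macrophages of no subset gate were also below, with -0.79 (-1.45 to -0.18) and -1.11 (-1.77 to -0.51).

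Between the libraries, Nt5e was past the fold in 2 macrophage subsets, in opposite directions. In interferon-high macrophages it went from 8 to 23 UMIs and had a log2 ratio of 1.35 (0.14 to 2.72), beside 10.9% of all genes, and in Tgfbi Htra3 macrophages from 34 to 33 UMIs, which as CPM was 16.3 against 8.93, with -0.87 (-1.60 to -0.13). In the latter the ratio was 1.56 when the gates were applied to thinned cells. In interferon-high macrophages 5 cells gave 16 of the 23 NAM UMIs, and without the 5 cells with most Nt5e in each library the ratio was 1.63 (-0.76 to 4.93). In Tgfbi Htra3 macrophages it was -0.33 (-1.38 to 0.77) without such cells. The call was kept in 3 of 7 alternatives with an interval for the former and in 4 of 7 for the latter. Of small gates, Foxp3 T cells had 6 and 0 UMIs of Nt5e and NK cells had 3 and 7, too few to be counted among calls, with a log2 ratio of 2.33 (0.20 to 4.91). The genes closest to Nt5e in level were Pde4d, which encodes a cyclic AMP phosphodiesterase, with an r of 0.80, Rab18 with 0.75 and Zfp51 with 0.73.

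The other genes of the pathway were past the fold about as often as all genes in macrophages. Of 36 other genes in the lists that were in the files, 25 had 20 or more UMIs in macrophages, and 3 of the 25 were past the fold, 2 higher and 1 lower in the NAM library, beside 14.5% of all genes. They had a median log2 ratio of -0.13 against -0.04 for all genes. Hcar2, the receptor for nicotinic acid and beta-hydroxybutyrate, went from 507 to 784 UMIs in macrophages (24.3 to 33.9 CPM), a log2 ratio of 0.48 (0.32 to 0.64). Haao, which makes quinolinate, the substrate of QPRT, went from 39 to 73 UMIs, with 0.75 (0.17 to 1.35). The deacylase gene Sirt6, among the users of NAD, went from 193 to 150 UMIs, with -0.51 (-0.83 to -0.20).

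**Figure D4:**
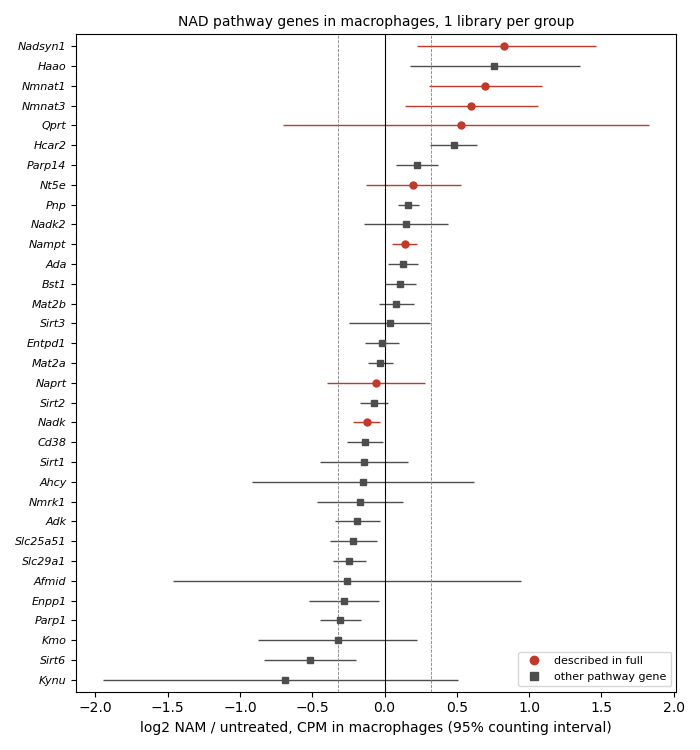
Log2 ratio of CPM, NAM over untreated, in macrophages (x axis) for the 33 NAD pathway genes with 20 or more UMIs (y axis), with 95% counting intervals as bars and dashed lines at a log2 ratio of 0.32 either way; red circles mark the genes described above and grey squares the other pathway genes. Nadsyn1, Haao, Nmnat1, Nmnat3 and Hcar2 lie beyond the upper line with intervals above 0, and Sirt6 lies below.

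Hcar2 had ratios of opposite sign in monocytes and macrophages, a difference that was not tested. In Ly6c2 monocytes it went from 66 to 35 UMIs (62.2 to 31.5 CPM), a log2 ratio of -0.98 (-1.62 to -0.37), while in macrophages its ratio was above 0 in all 5 subsets described, from 0.21 (-0.08 to 0.51) in those of no subset gate to 1.01 (0.38 to 1.68) in the Tgfbi Htra3 subset. The NAD carrier gene Slc25a51 also was lower in Ly6c2 monocytes of the NAM library, with 37 and 20 UMIs and -0.95 (-1.82 to -0.13). The NAD user Parp14 was higher there, with 76 and 112 UMIs and 0.49 (0.06 to 0.93), and these 3 were the other pathway genes past the fold of 16 tested in Ly6c2 monocytes, beside 13.4% of all genes. The 3 red cell genes went from 21 to 6612 UMIs in these monocytes, 6558 of the latter in 1 cell. There the 3 mast cell genes went from 5.65 to 15.3 CPM, while the 4 neutrophil genes went from 83.8 to 73.7 CPM. The part of such RNA in these ratios was not tested. In T cells the adenosine kinase gene Adk was the only other pathway gene past the fold of 16 tested, with 70 and 62 UMIs and -0.53 (-1.05 to -0.02), beside 11.7% of all genes.

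By list, nicotinamide and riboside salvage had 5 of 7 genes with 20 or more UMIs in macrophages, and 2 of the 5 were past the fold, both higher, with a median log2 ratio of 0.17. The nicotinic acid branch had all 3 genes tested, 2 of them higher, with a median of 0.48. Of the 9 genes of the tryptophan branch, 5 were tested and 1 was higher, with a median of -0.25; Tdo2 and Acmsd had 0 UMIs in macrophages of both libraries. Of the 7 genes listed for nicotinamide clearance and oxidation, 3 reached 20 UMIs, and none was past the fold. These were the methyl donor genes Mat2a, Mat2b and Ahcy. The clearance and oxidation enzymes themselves were too sparse to be tested: besides Nnmt, the aldehyde oxidase genes Aox1, Aox3 and Aox4 had 4 or fewer UMIs in either library. None of the 8 genes tested for extracellular nucleotides was past the fold in macrophages. These lists hold the 9 genes as well. Of all genes tested in macrophages 14.5% were past the fold, 3.71% with the higher level in NAM, and their median was -0.04.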

How the data were processed

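Each library was a 10x Chromium 3′ (version 2) library of CD45+ cells, which per the study's methods and the labels was run through Cell Ranger 2.1.0 against mm10. The annotation version is not given in the sources used here. The authors deposited whole-number UMI counts per gene and cell, after leaving out cells with fewer than 1000 genes, fewer than 3000 UMIs or over 10% mitochondrial UMIs. No doublets were removed here.

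Cells were gated by UMIs of marker genes, since no cell annotation was used. Osteoclast-like cells needed 50 UMIs of Ctsk, Acp5 and Mmp9 together. T cells needed 3 UMIs of the Cd3 genes, NK cells 3 of their markers, the dendritic gates 2 or 3, Ly6c2 monocytes 3 of Ly6c2, and macrophages 20 of the C1q genes. Subsets were taken in the order proliferating (5 UMIs), interferon-high (10), Vcam1 Dnase1l3 (4) and Tgfbi Htra3 (10). A further subset of 518 macrophages, set aside before the Vcam1 Dnase1l3 gate, is not reported here, and its cells remain in the macrophage totals. Thresholds were set after marker counts had been seen, and 208 cells lay between the C1q thresholds of 10 and 20. The osteoclast-like gate and the C1q-low Tgfbi Htra3 gate were added after values of the 9 genes in ungated cells had been seen. The 9 genes and the pathway lists were chosen with earlier results of these data known.

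UMIs were summed per gate and library and given as CPM with exact Poisson intervals. Ratios had exact conditional binomial intervals and differences of ratios a normal one. Shares of cells had Clopper-Pearson intervals, after each cell was thinned to 3000 UMIs. A count of 0 was read as allowing 3 UMIs. The medians of log2 ratios used a pseudocount of 0.5 UMIs. Named were the 9 genes, the pathway genes with 20 or more UMIs that were past 1.25-fold in a gate described, and the 3 genes of highest Pearson correlation in log2(CPM + 10) for each of the genes with 200 or more UMIs. Python 3.11.15, NumPy 2.4.6, SciPy 1.17.1 and pandas 2.3.3 were used. The intervals were tried on simulated Poisson counts, the model they assume. Such counts hold no spread between cells or mice, so that the trial checks the computation only. Alternatives were other scalings, cell weights, depths, gates, folds and minimum counts.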

Additional observations from a re-analysis of the deposited data

Results flagged for a closer look

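Among 49 differences between gates in the log2 ratio of NAM over untreated, 8 had a 95% interval without 0. These intervals cover counting error only, and with 1 library per group none of the differences was checked in a replicate. For Nmnat1 the ratio in macrophages exceeded that in osteoclast-like cells by 1.34 (0.48 to 2.19) and that in T cells, which had 7 and 4 UMIs, by 1.86 (0.05 to 3.67). Macrophages also exceeded osteoclast-like cells by 0.75 (0.01 to 1.49) for Nmnat3 and by 1.49 (0.24 to 2.75) for Nadsyn1. For Nampt the ratio in macrophages exceeded that in dendritic cells by 0.57 (0.05 to 1.10), although the ratio was 0.55 (-0.32 to 1.44) in the Xcr1 Clec9a gate and -1.46 (-2.77 to -0.35) in the Ccr7 Fscn1 gate. The ratio of Nadk was lower in other gates than in T cells, with a difference of -0.95 (-1.50 to -0.40) for macrophages, -0.80 (-1.41 to -0.19) for osteoclast-like cells and -1.03 (-1.67 to -0.38) for Ly6c2 monocytes.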

How the results depend on the processing

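Of 11 ratios past the fold in the gates described, 9 had 1 direction under all alternatives run, and 3 stayed past the fold wherever an interval could be had. These 3 were Nmnat1 and Nmnat3 in macrophages and Nadk in Foxp3 T cells. With 30 UMIs, the last would not be tested at a minimum of 50 UMIs. Thinning every cell to 3000 UMIs gave 1.06 for Nmnat3 in macrophages, against 0.60, and 0.022 for Nadk in C1q-low Tgfbi Htra3 cells, against -0.60. Gates applied to thinned cells gave 1.04 for Nadk in C1q-low Tgfbi Htra3 cells and 1.56 for Nt5e in Tgfbi Htra3 macrophages, against -0.87, and the cause was not tested. At a fold of 1.5, 6.56% of genes in macrophages were past it, and 1 of the other pathway genes instead of 3. Nmnat1 over all cells, Nadk in the cells of no gate and Nampt in Tgfbi Htra3 macrophages were not past that fold. Without the 5 cells with most UMIs of a gene, 20 of 74 levels moved beyond their interval, and without thinning 70 of 74 shares did. The osteoclast-like gate at 25 UMIs and the equal weighting of the macrophage subsets described were chosen after seeing the data. The median gene had a log2 ratio of -0.03 to 0.07, depending on the gate, which centring on it would subtract. No paired analysis was possible because each group had 1 library. The low counts of Nnmt, Qprt and Nadsyn1 limit what could be seen in small gates.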
